A study of Mus musculus with 6 samples.

Results

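The miR-378 family of the mouse comprises miR-378a, miR-378b, miR-378c and miR-378d, and its mature products were followed here in mouse heart cardiomyocytes with and without the long non-coding RNA lncSync. The members were chosen with earlier results of these data known. Entries were then assigned to them by name, and 5 of the 1952 mature miRNA entries belonged to the family: miR-378a-5p, miR-378a-3p, miR-378b, miR-378c and miR-378d. All 5 had counts in each of the 6 small RNA libraries. Adult hearts gave 2 libraries of genotype LncSync-/- (knockout, KO) and 2 of wild type (WT), and hearts of e13.5 embryos, at mid-gestation, gave 1 KO and 1 WT library. All were of strain C57BL/6, and the labels name no other allele or treatment. They do not give the age of the adults, the design of the deletion, the way cardiomyocytes were isolated or any pooling of embryos. Nor is it stated whether replicates are different animals, and p-values therefore reflect only library-to-library spread, possibly technical.

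MicroRNAs are short RNAs cut from hairpin precursors, and they repress messenger RNAs that pair with the seed, bases 2 to 8 of the mature strand. A hairpin can yield a product from either of its arms, named 5p and 3p. The miR-378a hairpin lies inside Ppargc1b, the gene of PGC-1β, a transcriptional coactivator that promotes mitochondrial gene expression and fatty acid oxidation. In mice both miR-378a arms are known as regulators of energy metabolism, and in cardiomyocytes miR-378a is known to repress growth factor signalling and hypertrophy.

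Of the 4 named members, miR-378b, miR-378c and miR-378d matched an entry of the RefSeq miRNA table used here (GRCm38.p6, the assembly also called mm10), and miR-378a did not. The 3 mature sequences are shown because they differ by so few bases that reads may be shared among them. They are written 5′ to 3′, with the seed in capitals.
miR-378b: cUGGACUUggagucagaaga
miR-378c: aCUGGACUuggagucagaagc
miR-378d: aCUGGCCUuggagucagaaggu
Counted from 1 at the 5′ end of miR-378c, miR-378d carries the changes A6C and C21G and is 22 rather than 21 bases long. miR-378b begins 1 base later, is 20 bases long and carries C21A on the same count. miR-378b and miR-378c thus share an unbroken run of 19 bases, and the longest run that miR-378d shares with either is 14 bases. The change at base 6 and the later start of miR-378b give these 3 miRNAs different seeds. How reads that match several members were assigned is not given in the sources used here, so the split of counts among all members, miR-378a-3p included, is uncertain.

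These 3 members come from separate loci (mm10). Mir378b (chromosome 11, 88352773 to 88352864, plus strand) and Mir378c (chromosome 14, 46954830 to 46954928, minus strand) lie in introns of Msi2 and Samd4, each on the strand opposite to that gene. Mir378d (chromosome 10, 126710282 to 126710391, minus strand) overlapped no other annotated gene.

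The position of the mature strand in the hairpin also differs, as the precursors show with the mature part in capitals.
Mir378b: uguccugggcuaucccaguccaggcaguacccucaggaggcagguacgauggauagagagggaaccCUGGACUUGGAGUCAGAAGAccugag
Mir378c: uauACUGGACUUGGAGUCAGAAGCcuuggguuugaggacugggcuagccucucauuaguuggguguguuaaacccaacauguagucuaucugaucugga
Mir378d: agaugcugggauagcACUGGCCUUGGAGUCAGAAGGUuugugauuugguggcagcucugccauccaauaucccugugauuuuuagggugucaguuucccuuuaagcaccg
miR-378b occupies bases 67 to 86 of 92, near the 3′ end, whereas miR-378c occupies bases 4 to 24 of 99 and miR-378d bases 16 to 37 of 110, both near the 5′ end. The minimum free energy predicted by RNAfold was −31.1 kcal/mol for Mir378b, −27.0 kcal/mol for Mir378c and −35.0 kcal/mol for Mir378d. Per base these were weaker than in 75.8%, 93.1% and 82.8% of 1005 mouse hairpins folded in the same way.

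Almost every read counted for these hairpins fell on the annotated mature strand. Over all 6 libraries, counts outside the mature strand numbered 1 of 82256 for mir-378b, 11 of 913060 for mir-378c and 1 of 82468 for mir-378d. Of 22 hairpins with a single mature entry of the same name and at least 1000 counts, the median share outside that entry was 17.0%, and 15 were at 1% or more, while 6, these 3 among them, were at 0.00122% or less. The share was 0.00122% for mir-378b, 0.0012% for mir-378c and 0.00121% for mir-378d. For mir-378a, with both arms annotated, 103 of 3367417 counts lay outside them.

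Mir378a lies on the minus strand of chromosome 18 (61397835 to 61397900, mm10) in an intron of Ppargc1b, on the strand of that gene. GENCODE also lists a miRNA gene, Gm25301, across it on the plus strand.

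Library depth ran from 14347091 to 17933518 mature counts in the adult libraries, and was 2671957 in the e13.5 KO and 8944552 in the e13.5 WT library. Levels below are CPM, counts scaled to the same mature total in every library, unless TMM scaling, edgeR's correction for differing library composition, is named. Intervals cover counting error only, since no molecular identifiers are stated and PCR copies are not independent molecules. The labelled cell type was checked against cardiomyocyte miRNAs, which made up 28.2% to 39.5% of counts in adult and 9.86% to 14.6% in e13.5 libraries. Between 8 and 12 of their 13 entries were detected per library, with miR-133b-5p at 0 in all 6.

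The family was among the abundant miRNAs of every library, and most of its reads were miR-378a-3p. Summed over the 5 entries, it made up 10.8% and 4.12% of counts in the adult KO libraries (replicates 1 and 2), against 5.43% and 5.67% in the adult WT libraries. At e13.5 it made up 2.69% in the KO library and 1.88% in the WT library. The 4 adult libraries were all above the e13.5 libraries, and within adults the KO libraries lay on both sides of the WT libraries.

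miR-378a-3p, the dominant strand, had 80400 and 28900 CPM in the adult KO libraries, against 38400 and 41200 CPM in the adult WT libraries. At e13.5 it had 24600 CPM in the KO library (2.46% of counts, Wilson 95% interval 2.437 to 2.474) and 17100 CPM in the WT library (1.71%, 1.699 to 1.716). It ranked between place 3 and place 8 of all mature miRNAs in the adult libraries and in place 9 in both e13.5 libraries. On library totals adult KO replicate 2 and the e13.5 KO library were neighbours in the order of levels. They differed less than the adult KO replicates did from each other. After TMM scaling this did not hold, with 83600 and 50800 CPM in the adult KO libraries and 11300 CPM in the e13.5 KO library.

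miR-378c was next, at 21800 and 9630 CPM in adult KO, against 12000 and 11800 CPM in adult WT libraries. It had 2110 CPM in the e13.5 KO and 1430 CPM in the e13.5 WT library. Every adult library was thus above every e13.5 library, by a wider margin than for miR-378a-3p.

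The remaining 3 members were rarer and stood close together in adults, between 804 and 2390 CPM. miR-378a-5p, the strand opposite miR-378a-3p in the same hairpin, had 2390 and 1010 CPM in adult KO, against 1700 and 1440 CPM in adult WT, with 63.6 CPM in e13.5 KO and 70.7 CPM in e13.5 WT. miR-378b had 1910 and 937 CPM in adult KO, against 1020 and 1190 CPM in adult WT, with 17.2 CPM in e13.5 KO and 20.1 CPM in e13.5 WT. The values of this member at e13.5 rest on 46 counts in the KO and 180 counts in the WT library. miR-378d had 1810 and 804 CPM in adult KO, against 1240 and 1070 CPM in adult WT, with 197 CPM in e13.5 KO and 184 CPM in e13.5 WT. The stages did not overlap for any of the 3, whereas in adults each had a KO library above and a KO library below both WT libraries. How many of all miRNAs separate the stages in this way was not counted, here or for the members above. Whether non-overlap sets the family apart therefore cannot be said from these values. At e13.5 the order spread out, with miR-378d above miR-378a-5p and miR-378b lowest.

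**Figure D1:**
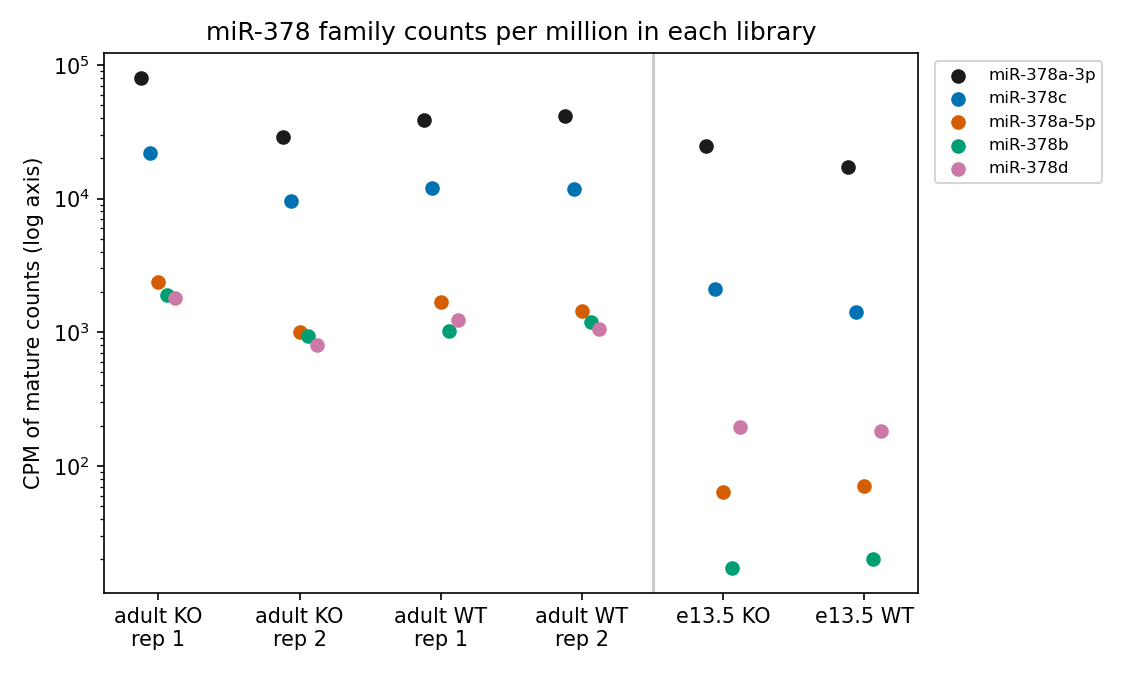
CPM of the mature total (log axis) for the 5 family members in each library, with adult libraries left of the e13.5 libraries. Every member is higher in the 4 adult libraries than in the 2 e13.5 libraries, and miR-378b shows the widest gap, at 937 to 1910 against 17.2 to 20.1 CPM.

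The comparison of stages asked which members differ between adult and e13.5 cardiomyocytes with genotype in the model. All 5 of 5 members were lower at e13.5 (edgeR quasi-likelihood test, Benjamini-Hochberg adjusted over 679 miRNAs). Of all miRNAs tested, 57.7% were called in this comparison, 28.4% in this direction and 29.3% in the other, so stage differences were common. The median log2 fold of the family, e13.5 over adult, was −3.98, beside −0.06 over all miRNAs tested.

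The difference between stages was unequal among members. After TMM scaling miR-378a-3p averaged 57900 ± 17900 CPM in adults (SD, n = 4) and 12500 ± 1710 CPM at e13.5 (SD, n = 2). Its log2 fold, e13.5 over adult, was −2.18 (SE 0.47, edgeR adjusted p = 0.00445). miR-378a-5p, cut from the same precursor, averaged 2010 ± 320.0 CPM in adults (SD, n = 4) and 43.1 ± 19.5 CPM at e13.5 (SD, n = 2). Its log2 fold was −5.58 (SE 0.61, edgeR adjusted p = 0.000154). miR-378b had the lowest log2 fold of the family, −7.03 (SE 0.70, edgeR adjusted p = 0.000113), in place 22 from the lowest of 679. miR-378c and miR-378d lay between, at −3.98 (SE 0.50, edgeR adjusted p = 0.000268) and −3.68 (SE 0.53, edgeR adjusted p = 0.000577). As fold differences, adult levels were 4.52 times those at e13.5 for miR-378a-3p, 12.8 times for miR-378d, 15.8 times for miR-378c, 47.8 times for miR-378a-5p and 131 times for miR-378b. Over all alternatives run, scalings and left-out libraries included, the log2 fold ran from −2.52 to −1.19 for miR-378a-3p, from −6.13 to −4.60 for miR-378a-5p, from −7.79 to −6.06 for miR-378b, from −4.30 to −2.97 for miR-378c and from −4.13 to −2.69 for miR-378d. For miR-378b it was −6.38 without the e13.5 KO library and −7.79 without the e13.5 WT library.

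The size of these folds depended on scaling, since library totals moved the median log2 fold of all miRNAs to 0.93 and median-of-ratios factors moved it to 0.72. The split of calls moved too, to 263 higher and 120 lower at e13.5 on library totals and 241 higher and 133 lower with median-of-ratios factors, against 199 higher and 193 lower after TMM scaling. On library totals miR-378a-3p had a log2 fold of −1.19 (edgeR adjusted p = 0.0327) and all 5 members still passed. With the knockout libraries alone, 2 adult and 1 e13.5, the miR-378a-3p call was lost (log2 fold −2.10, edgeR adjusted p = 0.125), and in that fit the lone e13.5 library is assumed to vary like the adults.

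**Figure D2:**
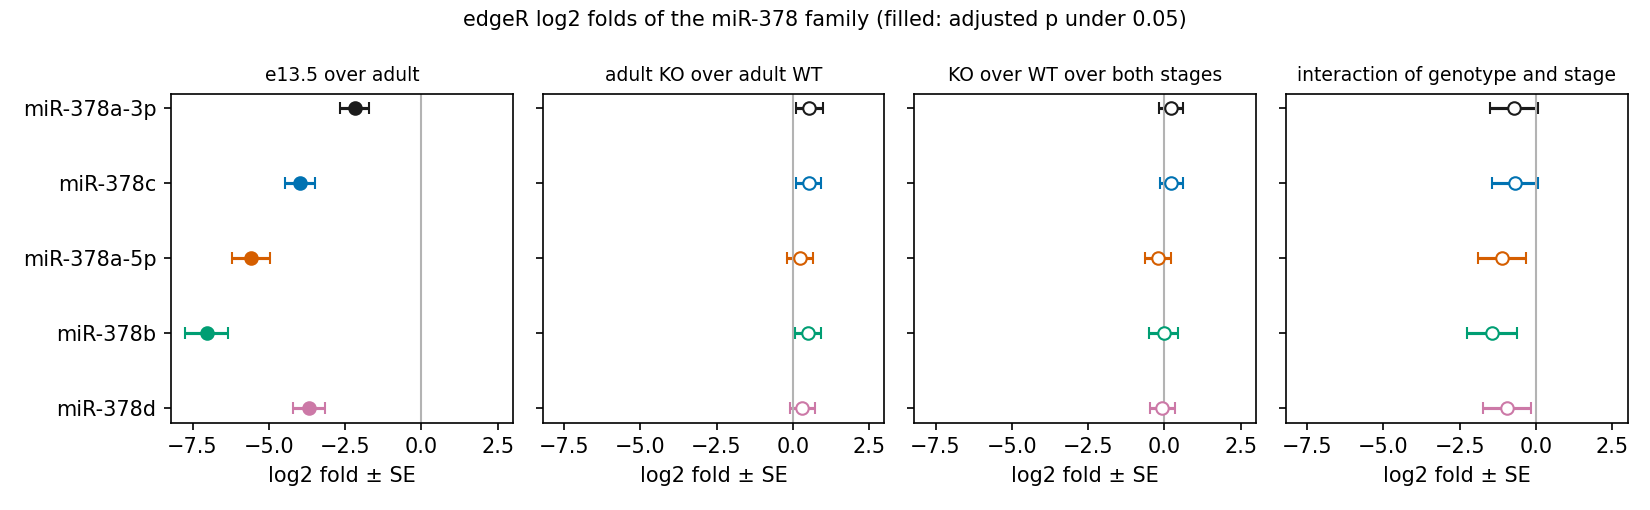
Log2 folds with standard errors from edgeR for the 5 members in the stage, genotype and interaction comparisons, with filled points for an adjusted p under 0.05. All points of the stage comparison are filled and lie between −7.03 and −2.18, and all points of the genotype and interaction comparisons are open.

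Some cell type markers moved with stage as well, and others overlapped between stages. Endothelial miRNAs made up 1.65% to 3.11% of counts in adult libraries and 1.63% to 1.9% at e13.5. Erythroid miRNAs made up 0.565% to 2.23% in adult libraries and 0.0748% to 1.43% at e13.5. This sum was highest in adult KO replicate 1, whereas its member miR-451a was highest in the e13.5 KO library. miR-451a ran from 45.1 to 402 CPM in adult libraries and had 7550 CPM in the e13.5 KO library. In the e13.5 WT library, at 3380 of 8944552 counts, it lay within the adult range. The erythroid sum therefore does not stand for each of its entries. Smooth muscle and fibroblast miRNAs made up 7.48% to 11.8% of counts in adult libraries and 21.5% to 35.6% at e13.5, with 9 or 10 of 10 entries detected and miR-145b at 0 in the e13.5 KO library. At e13.5 most of this sum was miR-143-3p, at 562999 of 2671957 counts in the KO and 3128355 of 8944552 in the WT library. The sum therefore says little about the other entries. Leukocyte miRNAs made up 0.177% to 0.28% of counts in adult libraries and 0.0131% to 0.0192% at e13.5, with 8 or 9 of 10 entries detected and miR-146a-3p at 0 in all 6. The liver miRNA miR-122 summed to 0.417 to 3.83 CPM in adult libraries, and to 192 CPM in the e13.5 KO and 45.2 CPM in the e13.5 WT library, with 1 or 2 of 2 entries detected. The family's counts equalled 38.4% and 10.4% of the summed cardiomyocyte marker counts in adult KO and 17.2% and 17.0% in adult WT libraries, with 27.3% in the e13.5 KO and 12.9% in the e13.5 WT library. On this base the stages overlapped. miR-1a-3p alone made up 28.9% to 64.9% of that marker sum in adults and 95.8% to 96.2% at e13.5. In bulk libraries fewer cells of a type and less RNA per cell cannot be told apart, and the part of cell makeup in the stage difference was not tested. Nor can stage be told apart from any difference in preparation between the adult and e13.5 libraries.

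Ratios between members within a library do not depend on scaling. They do rest on the split of counts among members, which is uncertain because the assignment of shared reads is not given. The 5p strand made up 2.89% and 3.37% of the miR-378a arm counts in adult KO, against 4.23% and 3.38% in adult WT libraries. At e13.5 it made up 0.258% in the KO library (Wilson 95% interval 0.222 to 0.3) and 0.412% in the WT library (0.381 to 0.445). The stages did not overlap, and the difference of their means, e13.5 minus adult, was −3.13 percentage points.

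miR-378c made up 23.1% ± 1.63 of its sum with miR-378a-3p in adults (SD, n = 4), with 7.93% and 7.72% in the e13.5 KO and WT libraries. For miR-378b the share was 2.71% ± 0.351 in adults (SD, n = 4), with 0.0701% in e13.5 KO and 0.118% in e13.5 WT. For miR-378d it was 2.64% ± 0.388 in adults (SD, n = 4), with 0.797% in e13.5 KO and 1.07% in e13.5 WT. How often ratios of other miRNAs separate the stages was not counted. None of the 4 ratios here overlapped between stages. Each had a two-sided exact permutation p = 0.133, also after adjustment over the 4 ratios. That is the smallest p that 4 against 2 libraries allow, so the design cannot reach the threshold.

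**Figure D3:**
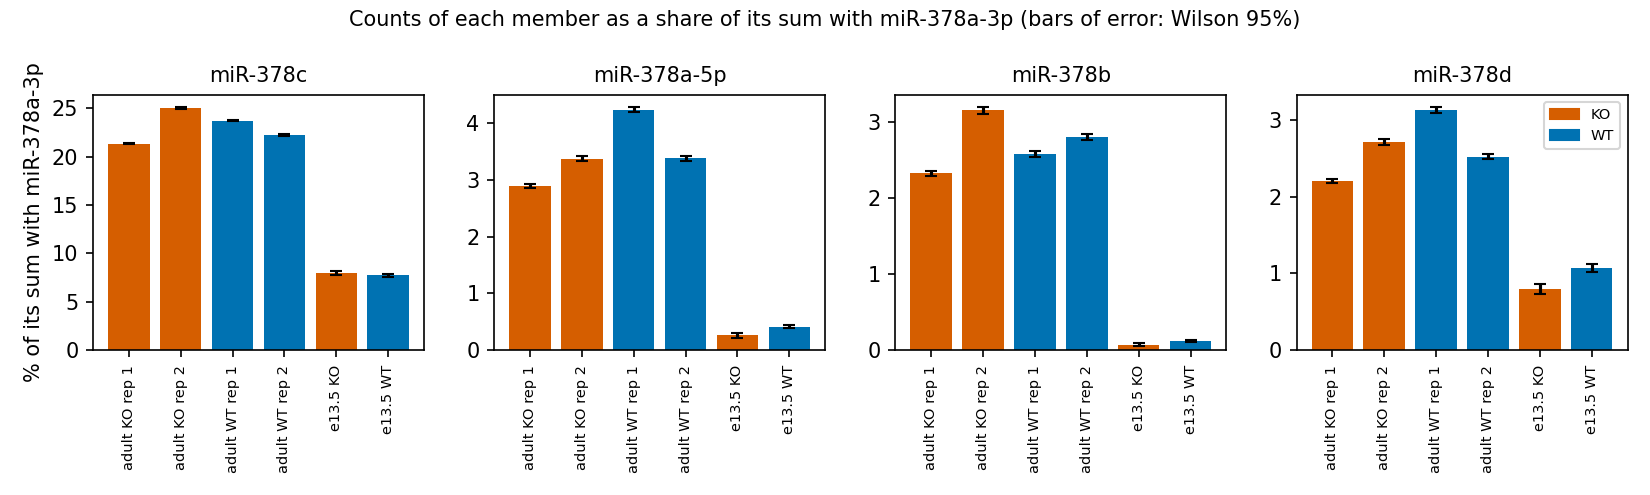
Counts of each member as a percentage of its sum with miR-378a-3p in the same library, with Wilson 95% intervals. In each panel the 4 adult values exceed both e13.5 values, and in adults miR-378c lies at 21.3% to 25.0%.

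A shift of the 5p to 3p count ratio between stages was common. It was computed for 90 hairpins with at least 100 counts of both arms together in every library and at least 100 in total from the rarer arm. The median absolute shift of log2(5p/3p) between the stage means was 2.63. The shift of miR-378a, −3.44 as e13.5 minus adult, was in place 33 of 90 by absolute size, so a shift of this size was not particular to it. Stage cannot be told apart here from any difference in library preparation between the adult and e13.5 libraries.

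**Figure D4:**
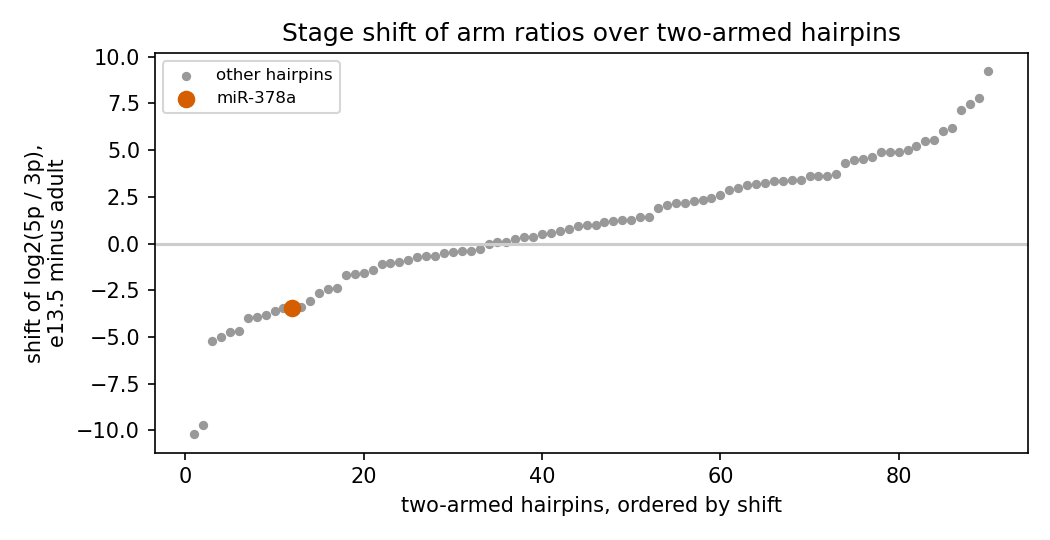
Shift of the log2 ratio of 5p to 3p counts, e13.5 minus adult, for 90 hairpins in order of the shift, with miR-378a marked. miR-378a, at −3.44, lies among the hairpins whose 5p to 3p ratio was lower at e13.5 and is not at the end of the range.

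Adult KO and WT cardiomyocytes were compared to ask which members differ with the loss of lncSync where replicates exist. No member passed: 0 of 5 by edgeR, DESeq2 or limma, and 0 of 5 had an unadjusted p under 0.05 by any of these. Of 544 miRNAs tested by edgeR, 0.735% were called and 16 had an unadjusted p under 0.05. Log2 folds, KO over WT, were 0.54 for miR-378a-3p (SE 0.44), 0.52 for miR-378c (SE 0.41), 0.50 for miR-378b (SE 0.43), 0.31 for miR-378d (SE 0.42) and 0.24 for miR-378a-5p (SE 0.42), each with an edgeR adjusted p of 0.999. The family median was 0.50, beside 0.08 over all miRNAs tested.

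The KO replicates differed from each other more than the WT replicates did on library totals. Replicate 1 exceeded replicate 2 by 2.79 times for miR-378a-3p in KO libraries, and by 1.64 times after TMM scaling, whereas the WT replicates were within 1.07 and 1.28 times on these scales. For the other 4 members the KO gap was 2.04 to 2.37 times on library totals. After TMM scaling it was 1.20 to 1.40 times, beside at most 1.40 times between the WT replicates, and for miR-378b the WT gap (1.40) exceeded the KO gap (1.20). Without KO replicate 2 the log2 fold of miR-378a-3p was 0.79 and passed (edgeR adjusted p = 0.0443), and without KO replicate 1 it was 0.12 (edgeR adjusted p = 0.973). In each of these fits the spread comes from the WT replicates alone, and the lone KO library is assumed to vary like them. Erythroid miRNAs, markers of red blood cells, made up 2.23% of counts in KO replicate 1 and 0.565% in KO replicate 2, against 1.57% and 1.04% in the WT libraries, with 5 of 5 entries detected in each. Most of this sum was not miR-451a, which had 402 of 22300 CPM in KO replicate 1 and 45.1 of 5650 CPM in KO replicate 2. In WT replicates 1 and 2 it had 107 of 15700 and 90.7 of 10400 CPM. The part of erythroid miRNAs in the gap between the KO replicates was not tested.

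At e13.5, with 1 library per genotype, the KO to WT differences have no replicate check. Log2 folds, KO over WT, ran from −1.04 to −0.27 after TMM scaling. None of the 5 members was 4-fold apart. With so few members this is no contrast to the share over all miRNAs. Of the 565 miRNAs that reached 10 counts in KO or WT, 17.5% were 4-fold apart, 7.79% higher and 9.73% lower in KO. That split turned with the scaling, at 44 higher and 55 lower in KO after TMM scaling and 81 higher and 26 lower on library totals. For miR-378a-3p the sign depended on the scaling, with a log2 fold of −0.32 after TMM scaling and 0.52 on library totals. Erythroid miRNAs made up 1.43% of counts in the e13.5 KO library, against 0.0748% in the e13.5 WT library, with 5 of 5 entries detected in both. Smooth muscle and fibroblast miRNAs made up 21.5% against 35.6%, most of it miR-143-3p. Their part in the e13.5 differences was not tested.

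Over both stages, 0 of 5 members differed between KO and WT by edgeR, DESeq2 or limma, and 0 of 5 had an unadjusted p under 0.05 by any of them. Log2 folds, KO over WT, ran from −0.20 for miR-378a-5p to 0.23 for miR-378c, each with an edgeR adjusted p of 0.989. Of 679 miRNAs tested by edgeR, 0.736% were called and 14 had an unadjusted p under 0.05. The signs of miR-378a-5p, miR-378b and miR-378d turned on library totals. Whether the genotype difference changed with stage was tested as an interaction, in which the spread comes from the adult replicates alone. Its log2 estimates ran from −1.44 for miR-378b to −0.68 for miR-378c, with edgeR adjusted p-values of 0.875 to 0.932. None of the 5 passed by edgeR, DESeq2 or limma, and 0 of 5 had an unadjusted p under 0.05 by any of these. Of 769 miRNAs edgeR called 0%, with 46 at an unadjusted p under 0.05, while DESeq2 called 4 and limma 0.

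Other miRNAs known for acting on lipid, glucose or mitochondrial metabolism moved in both directions between stages. Of 18 tested arms from miR-33, miR-103, miR-107, miR-122, miR-181c, miR-193b, miR-210, miR-365, miR-494 and miR-696, 5 were lower at e13.5, 4 were higher at e13.5 and 9 did not pass (edgeR). Over all miRNAs tested, 28.4% were lower and 29.3% higher at e13.5, so these shares were near the background. The list's median log2 fold, e13.5 over adult, was −1.11, beside −0.06 over all miRNAs tested. miR-103-3p and miR-107-3p, encoded in introns of pantothenate kinase genes, had log2 folds of −1.47 (SE 0.44, edgeR adjusted p = 0.0204) and −4.51 (SE 0.55, edgeR adjusted p = 0.000207). The miR-103-3p call was lost on library totals (−0.46, edgeR adjusted p = 0.456), with median-of-ratios factors (−0.70, edgeR adjusted p = 0.160), with DESeq2 (−0.70, adjusted p = 0.136), in knockout libraries alone (−1.31, edgeR adjusted p = 0.304) and without adult KO replicate 1, either adult WT replicate or the e13.5 KO library (−1.17 to −0.95, edgeR adjusted p 0.0634 to 0.169). miR-181c-5p, known in rat heart to act on a mitochondrial messenger RNA, had −5.24 (SE 0.78, edgeR adjusted p = 0.000678).

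Among cardiac muscle miRNAs 9 of 11 tested arms were lower at e13.5, 1 was higher at e13.5 and 1 did not pass, beside 28.4% lower and 29.3% higher over all miRNAs tested, with a median log2 fold of −3.97. For miR-133a-3p and miR-133b-3p, regulators of muscle growth and differentiation, the log2 folds were −7.54 (SE 0.64, edgeR adjusted p = 9.11e-05) and −8.50 (SE 0.81, edgeR adjusted p = 9.81e-05). miR-1a-3p, the other abundant muscle miRNA, had −1.54 (SE 0.75, edgeR adjusted p = 0.106). Its value rested on single libraries and on the scaling, with −0.33 without adult KO replicate 2, −0.68 without the e13.5 KO library, −2.60 without the e13.5 WT library and −0.44 on library totals, and it passed without the filter on low counts (−1.57, edgeR adjusted p = 0.0381). In neither list did any member pass between adult KO and WT by edgeR, DESeq2 or limma. At an unadjusted p under 0.05, edgeR and DESeq2 each had 1 of 13 metabolism arms and limma 0, and all 3 had 0 of 11 cardiac arms. Over all miRNAs tested by edgeR in that comparison, 16 of 544 were under it.

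The pattern of miR-378a-3p over the 6 libraries was set against 172 other miRNAs with a mean of at least 100 CPM, by the root mean square difference of log2 CPM after each was centred on its own mean. The 5 most alike were miR-181b-5p (0.229), miR-342-3p (0.314), let-7f-5p (0.335), miR-125a-5p (0.385) and miR-103-3p (0.396). miR-181b-5p had 1470 and 673 CPM in adult KO, against 1000 and 1020 CPM in adult WT, with 701 CPM in e13.5 KO and 507 CPM in e13.5 WT. Like miR-378a-3p it was highest in adult KO replicate 1 and lowest in the e13.5 WT library. After TMM scaling both were lowest in the e13.5 KO library instead, at 324 CPM for miR-181b-5p and 11300 CPM for miR-378a-3p. Members of the family itself were less alike, with miR-378d in place 33, miR-378c in place 51, miR-378a-5p in place 97 and miR-378b in place 124.

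**Figure D5:**
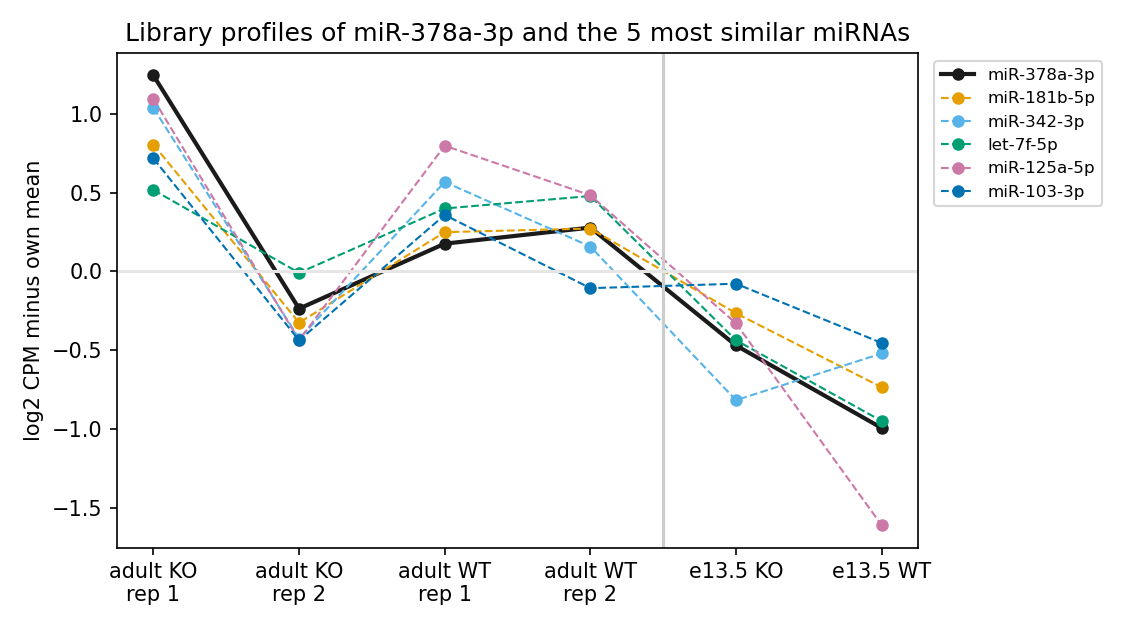
Log2 CPM minus each miRNA's own mean over the 6 libraries, for miR-378a-3p and the 5 miRNAs closest to it. Values are not TMM-scaled. All 6 are highest in adult KO replicate 1, where miR-378a-3p reaches 1.24, and miR-378a-3p is lowest, at −0.99, in the e13.5 WT library. After TMM scaling let-7f-5p was higher in adult KO replicate 2 (33000 CPM) than in adult KO replicate 1 (28000 CPM).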

How the data were processed

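The authors deposited whole-number read counts per hairpin and per mature miRNA for 6 small RNA libraries, not normalised. Per the labels' protocols, RNA was extracted with TRIZOL, treated with DNase and made into libraries with a NEXTFLEX small RNA kit. Per the submitters' processing notes, the genome build was mm10. For trimming, aligner, counting tool and multiply matching reads, the method is not given in the sources used here. Of 3208 entries, 1974 were mature, and 22 whose counts lay within 1% of another's were merged into it. Mature counts were tested with edgeR 4.0.16 (R 4.3.3; glmQLFit and glmQLFTest, two-sided, TMM, filterByExpr, min.count 10), and calls were made below 0.05 after Benjamini-Hochberg adjustment. The adult comparison used 4 libraries, with 2 residual degrees of freedom, and the additive fit of stage and genotype used 6, with 3. SEs are the absolute log2 fold over the square root of F. The e13.5 folds use a prior count of 2 and no test. DESeq2 1.42.0, limma 3.58.1 (voom), other scalings, no filter, unmerged and hairpin entries and left-out libraries were alternatives. The fitting code was tested on simulated data. Hairpins were folded with RNAfold 2.7.2. Named miRNAs were the 5 family entries, the 5 closest in pattern and the 3 most abundant tested members of each list. Members and lists were chosen with earlier results of these data known.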

Additional observations from a re-analysis of the deposited data

Results flagged for a closer look

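For 3 members the KO libraries lay on opposite sides of WT at the stages after TMM scaling, with both adult KO libraries above both adult WT libraries and the e13.5 KO library below the e13.5 WT library. The e13.5 differences, KO minus WT, were −8.25 TMM-scaled CPM for miR-378b (7.95 against 16.2), −174 for miR-378c (976 against 1150) and −57.2 for miR-378d (91.1 against 148). In adults the TMM-scaled values of miR-378c were 22700 and 17000 CPM in KO libraries and 13300 and 15600 CPM in WT libraries. On library totals adult KO replicate 2 lay below both WT libraries for all 3 members, so the separation depends on the scaling. The interaction test of the same difference did not pass for any of them (edgeR adjusted p = 0.875, 0.932 and 0.917 for miR-378b, miR-378c and miR-378d).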

How the results depend on the processing

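The stage difference of each of the 5 members kept its direction under the 14 or 15 alternatives run for it, and its call in all of them except miR-378a-3p in knockout libraries alone. Leaving out a library gave 5 to 47 calls between adult genotypes (4 with all libraries; 35 without KO replicate 1, 47 without KO replicate 2) and 261 to 381 between stages (392 with all; 261 without the e13.5 KO library). It gave 3 to 5 between genotypes over both stages (5 with all; 3 without either adult WT replicate) and 0 to 87 for the interaction (0 with all; 87 without adult KO replicate 1, 40 without adult KO replicate 2). Without a filter on low counts 9 were called between adult genotypes and 2 in the interaction. limma called 0 between adult genotypes, DESeq2 called 4 in the interaction and library totals 1, knockout libraries alone gave 231 between stages, and hairpin entries 3 between genotypes over both stages. Differences of adult replicate 1 from replicate 2 correlated little between KO and WT (0.0916 over 254 miRNAs), which cannot show whether the libraries were paired. With a replicate block 5 were called between adult genotypes and miR-378a-3p had a log2 fold of 0.50.

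Genotype folds near 0 changed sign. Over both stages, library totals gave 0.027 for miR-378a-5p, 0.18 for miR-378b and 0.15 for miR-378d, and miR-378b was at 0.027 with median-of-ratios factors, 0.032 with DESeq2 and 0.16 with limma. Leaving out a library gave −0.01 to 0.44 for miR-378a-3p, −0.40 to 0.14 for miR-378a-5p, −0.29 to 0.41 for miR-378b and −0.24 to 0.22 for miR-378d, and between adult genotypes −0.036 to 0.392 for miR-378a-5p. In the interaction, library totals gave 0.067 for miR-378a-3p and 0.16 for miR-378c. At e13.5, library totals gave 0.52 for miR-378a-3p, 0.57 for miR-378c and 0.10 for miR-378d, and TMM of the e13.5 libraries alone, chosen after seeing the data, 0.039 for miR-378a-3p and 0.081 for miR-378c. At e13.5 the changes on library totals follow from the TMM factors, 2.201 for the KO and 1.23 for the WT library, which library totals leave out. Without either e13.5 library the genotype fold over both stages rests on the adult libraries alone. What makes the factors differ, and the cause of the other changes, was not tested. Depth limits the e13.5 KO library most, where 3 counts correspond to 1.12 CPM.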
